A study of Mus musculus with 14 samples.

Results

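The checkpoint and costimulatory receptors described here are 10 genes of group 2 innate lymphoid cells (ILC2s), chosen by name: the inhibitory receptors Tigit, Ctla4, Pdcd1, Havcr2, Lag3, Klrg1 and Cd200r1, the costimulatory receptor Icos, and the ligands Cd274 and Icosl. All 10 were matched by symbol in the raw counts and in the transcripts per 1000000 (TPM) of both experiments, which list 53278 genes each. In the IL-33 experiment, lung ILC2s of 8 female B6 mice were compared as 4 unstimulated and 4 IL-33 stimulated libraries (20 ng/mL IL-33 for 24 h). In the Blimp-1 experiment, lung ILC2s of 3 female ControlIL7RaCre (Control) and 3 female Blimp-1IL7RaCre (Blimp-1-deficient) mice, matched for age, were all cultured with IL-33 and IL-25 at 20 ng/mL each for 72 h. For age, the study's methods give a lower bound for all animals but no value for these mice. The series' design describes individual mice, whereas captions of the study's figures that hold these RNA-seq data describe sorting samples of pooled animals, so whether a library is 1 mouse or a small pool is not settled here.

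Cells had been sorted as live, CD90.2+ cells that lacked lineage markers and CD3. The study's RNA-seq methods list IL-2 for the 72 h culture, which the sample labels do not. Its general culture methods add IL-2 to ILC2 cultures, so whether the 24 h cultures held it is not settled here. The labels give no culture time for the unstimulated cells, and the sources call them both cultured without IL-33 and ex vivo, so that effects of IL-33 and of culture cannot be told apart if they were not cultured. The deletion is not restricted to ILC2s, since a Cre under control of IL7Rα acts in lymphocytes broadly, and the ILC2s of these mice developed beside other deficient lymphocytes.

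ILC2s are tissue lymphocytes without antigen receptors that respond to alarmins such as IL-33 with type 2 cytokines. Immune checkpoints are receptors that restrain a lymphocyte when they meet their ligand, whereas costimulatory receptors add to its activation. CTLA-4 and CD28 compete for CD80 and CD86, TIGIT and CD226 for CD155 (Pvr) and CD112 (Nectin2), and PD-1 binds PD-L1 (Cd274) and PD-L2 (Pdcd1lg2). ICOS and its ligand can both be found on ILC2s, where their contact is known to help the cells survive and make cytokine, and KLRG1 is widely used as a marker of mature and activated ILC2s. Blimp-1, encoded by Prdm1, is a transcriptional repressor that is known to promote several of these receptors in T cells.

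The promoters of the genes whose transcripts moved most, or which held a motif that was searched, are shown because Blimp-1 is a DNA-binding repressor and IL-33 is known to act on AP-1 factors, among others. They are the bases before the start of transcription in the RefSeq table of GRCm38.p6, which held 6 of the 10 genes (Ctla4, Pdcd1, Icosl, Havcr2, Tigit and Cd274). They run 5′ to 3′ on the strand of the gene, and capitals mark a motif match. Tigit lies at chr16:43664185-43664434 on the minus strand, Ctla4 at chr1:60908775-60909024, Havcr2 at chr11:46454681-46454930 and Icosl at chr10:78069118-78069301, all on the plus strand. The Icosl stretch stops where an annotated exon begins, after 184 of the 250 bases.

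Tigit: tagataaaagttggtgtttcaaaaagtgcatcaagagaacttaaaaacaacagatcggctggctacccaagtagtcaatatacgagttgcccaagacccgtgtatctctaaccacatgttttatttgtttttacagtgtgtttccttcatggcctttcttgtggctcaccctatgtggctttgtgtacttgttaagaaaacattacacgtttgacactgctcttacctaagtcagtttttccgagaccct
Ctla4: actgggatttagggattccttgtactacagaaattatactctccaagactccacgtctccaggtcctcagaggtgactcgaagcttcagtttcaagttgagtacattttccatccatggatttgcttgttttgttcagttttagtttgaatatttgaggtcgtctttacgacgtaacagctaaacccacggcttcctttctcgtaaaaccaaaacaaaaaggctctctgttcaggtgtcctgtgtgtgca
Havcr2: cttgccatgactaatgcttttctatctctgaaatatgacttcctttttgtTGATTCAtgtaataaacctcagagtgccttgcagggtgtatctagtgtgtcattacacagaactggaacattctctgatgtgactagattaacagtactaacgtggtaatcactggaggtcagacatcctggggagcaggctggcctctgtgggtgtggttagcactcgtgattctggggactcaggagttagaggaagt
Icosl: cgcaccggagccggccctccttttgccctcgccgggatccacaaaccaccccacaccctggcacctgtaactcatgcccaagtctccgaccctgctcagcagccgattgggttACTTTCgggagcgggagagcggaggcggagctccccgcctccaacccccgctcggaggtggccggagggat

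Both strands of the 250 bases before each start were searched for the Blimp-1 core GAAAGT, the longer form AGNGAAAG, the STAT motif TTCNNNGAA and the AP-1 motif TGANTCA, of which the Blimp-1 forms can overlap. Icosl held the core on its antisense strand, where it reads ACTTTC, from 137 to 132 bases before the start. Havcr2 held the AP-1 motif as TGATTCA from 200 to 194 bases before the start. None of these letters was found in the windows of Tigit, Ctla4, Pdcd1 and Cd274. Among the 32851 promoters of the table, 12.3% held GAAAGT, 7.3% AGNGAAAG, 7.02% TTCNNNGAA and 6.75% TGANTCA, so matches of this kind are common. A match of letters is a description, not a binding site.

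In the mouse genome (GRCm38, GENCODE vM21), Ctla4 at chr1:60887000-60915832 and Icos at chr1:60977927-61000320 are neighbours on the plus strand, and Pdcd1 lies on the same chromosome at chr1:94038305-94052553 on the minus strand. Tigit at chr16:43648867-43664146 and Cd200r1 at chr16:44765736-44794978 share chromosome 16, and Klrg1 at chr6:122270596-122282882 and Lag3 at chr6:124904361-124911705 share chromosome 6. Havcr2 lies at chr11:46454935-46481255, Icosl at chr10:78069302-78083913 and Cd274 at chr19:29367455-29388095. All 10 are protein-coding. An antisense gene, AC119228.1, covers 14.1% of the exon bases of Cd274. As the strand used for counting was not given in the sources used here, reads of this overlap cannot be told apart. Of the stretches of 75 bases in the transcripts, 9.22% were shared with another gene for Cd274, 0.401% for Cd200r1 (with Cd200r4), 0.237% for Tigit and none for the other 7.

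Counts per library ranged from 10470125 to 32849428 with IL-33 or without, and between 13570188 and 76448945 in Control and Blimp-1-deficient libraries, and a pair of libraries stood apart. IL-33 stimulated replicate 3 had the fewest counts of its experiment. Control replicate 2 held 76.8% of its counts on 7 genes that took 0.262% to 0.941% of the others, which left 3150795 counts for all other genes. The number of genes called is therefore given with and without these libraries. Levels are given as counts per 1000000 after TMM normalisation (CPM), and 3 counts, the limit below which a gene listed at 0 may lie, amount to 0.0859 to 0.296 CPM in the IL-33 experiment, 0.731 CPM in Control replicate 2 and 0.031 to 0.0387 CPM in the other 5 libraries of the Blimp-1 experiment. These limits cover counting error alone.

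Markers of the cells that the gate could hold were summed on the TPM scale, rescaled without the genes that dominated a single library. All 10 ILC2 markers examined (Gata3, Il1rl1, Rora, Il7r, Il2ra, Thy1, Ptprc, Il17rb, Icam1 and Nmur1) were above 1 on this rescaled scale in all 14 libraries. Of these, Thy1 was at 776 to 924 in unstimulated and 108 to 137 in IL-33 stimulated libraries. Icam1 lay the other way (23.5 to 29 and 35.6 to 56), and Il2ra overlapped (922 to 1138 and 950 to 1386). The sum of all 10 was 4753 to 5119 in unstimulated and 2310 to 3061 in IL-33 stimulated libraries. It was 3972, 1650 and 3872 in Controls 1 to 3 and 3258 to 3426 in Blimp-1-deficient libraries. In Control replicate 2 the sum in deposited TPM was 101. Several receptors described here are also made by T cells, and the sum of 13 T cell markers was 725 to 846 in unstimulated and 169 to 222 in IL-33 stimulated libraries, 187, 91.1 and 144 in Controls 1 to 3 and 202 to 228 in Blimp-1-deficient libraries. In unstimulated libraries Trbc2 (557 to 621) and Trbc1 (107 to 134) made up most of it, Cd3g was at 32.7 to 42.1, Trac at 9.81 to 25.2, Cd3e at 3.93 to 8.16 and Cd4 at 2.98 to 5.43. Transcripts of genes on the T cell list were thus present in these libraries, and which cells made them was not tested.

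The other lists also moved with the groups. Epithelial and stromal markers, 11 in all, summed to 284 to 429 in unstimulated and 113 to 200 in IL-33 stimulated libraries, and Epcam among them was at 91.5 to 113 and 2.97 to 5.05. Pecam1 of the same list lay the other way, at 27.6 to 45.8 in unstimulated and 52.3 to 60.1 in stimulated libraries. The sum of the list was 136, 800 and 186 in Controls 1 to 3 and 312 to 387 in Blimp-1-deficient libraries. Mast cell and basophil markers (7 genes) summed to 27.8 to 45.6 in unstimulated and 0.415 to 3.5 in IL-33 stimulated libraries. Cpa3 (15.7 to 29.6 and 0 to 0.125) and Cd200r3 (6.95 to 10.6 and 0.323 to 0.785) made up most of the unstimulated sum. Ms4a2, Cma1 and Tpsb2 had 0 counts in every unstimulated library, and Tpsb2 reached 2.72 after IL-33. The sum of this list was 2 to 9.33 in Control and 11 to 15.8 in Blimp-1-deficient libraries. The groups of both experiments overlapped for the sums of 14 myeloid markers (244 to 490 in unstimulated, 100 to 266 after IL-33, 89.2 to 364 in Control and 112 to 313 in deficient libraries) and of 7 B cell markers (56.7 to 67.6, 40.1 to 58.1, 22.9 to 70.6 and 65.4 to 75.9). Of the B cell list, Ms4a1 and Pax5 were at or near 0, but Ighm was at 28.8 to 42.8 in unstimulated libraries and Cd79b at 23.4 to 28.7 there, 28.4 to 36 after IL-33, 13.8 to 52.5 in Control and 54.7 to 65 in deficient libraries. Cd79b and, of the myeloid list, Adgre1 (1.33 to 1.85 in Control and 5.34 to 7.36 in deficient libraries) thus separated the groups of the Blimp-1 experiment where the sums did not. The 8 NK cell markers summed to 6.25 to 11.5, 2.48 to 8.21, 10.5 to 17.5 and 3.94 to 19.8 in the same order. The part of these cells in the differences given here was not tested, and in these bulk libraries fewer cells of a type and less RNA per cell cannot be told apart.

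Which of these receptors do ILC2s transcribe most? TPM, which takes account of gene length, was used to rank them. In unstimulated ILC2s the highest level was that of Icos (928 ± 56.5 TPM, SD, n = 4), followed by Cd200r1 (488 ± 50.6) and Klrg1 (451 ± 23.6), whose libraries overlapped. Pdcd1 (70 ± 3.55), Icosl (32.4 ± 4.95), Cd274 (21.9 ± 5.17), Havcr2 (20.9 ± 1.12) and Tigit (9.64 ± 2.86) came next, and Icosl overlapped with Cd274 and Cd274 with Havcr2. Lag3 (0.431 ± 0.134) and Ctla4 (0.345 ± 0.149) were lowest and overlapped. Levels of the 10 genes thus ran from 0.345 to 928 TPM in the same cells.

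After IL-33 the order was different. Icos stayed highest (575 ± 58.1 TPM, SD, n = 4), but Klrg1 (254 ± 49.4), Tigit (185 ± 26.1), Pdcd1 (159 ± 38.9) and Cd200r1 (140 ± 25.3) now lay within overlapping ranges of each neighbour. Tigit, the eighth of the 10 before, was the third after IL-33. Cd274 (53.8 ± 20.5), Havcr2 (17.1 ± 2.05), Icosl (7.88 ± 2.08), Ctla4 (2.65 ± 1.69) and Lag3 (0.173 ± 0.0974) followed, and of these neighbours Icosl and Ctla4 alone overlapped.

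In the activated ILC2s of the Blimp-1 experiment, Controls 1 and 3 were led by Klrg1 (566 ± 12.3 TPM, SD, n = 2) and Icos (325 ± 10.5), whose ranges did not overlap. In the Blimp-1-deficient libraries this order was turned, with Icos at 621 ± 47.5 TPM and Klrg1 at 292 ± 55.9 TPM (SD, n = 3), again without overlap. Ctla4 stood above Icosl in Controls 1 and 3 (12.6 ± 2.65 against 8.96 ± 1.5 TPM) and below it in Blimp-1-deficient libraries (4.64 ± 1.34 against 17.7 ± 2.76 TPM), without overlap in either group. With Control replicate 2, whose TPM are lowered by its dominant genes, the Control means were 381 ± 321 TPM for Klrg1 and 218 ± 184 TPM for Icos (SD, n = 3) and these ranges overlapped. The deposited gene length behind TPM was 963 bases for Tigit and 2034 for Cd200r1, against 919 and 3348 exon bases in GENCODE vM21, so their rank depends on the gene model. The other 8 lengths were the same.

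**Figure D1:**
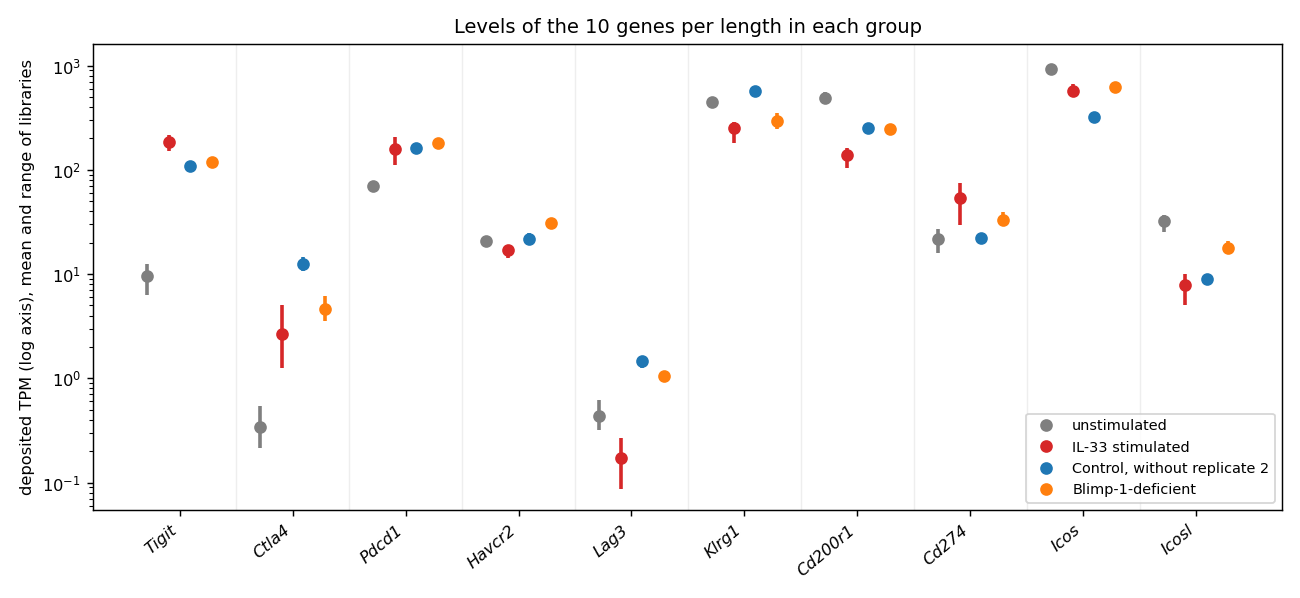
Deposited TPM (log axis) of each gene in the 4 groups, with the mean as a point and the range of the libraries as a line; Control replicate 2 is left out. Icos and Klrg1 are among the highest 3 and Lag3 and Ctla4 among the lowest 3 in each group, Cd200r1 is among the highest 3 except in IL-33 stimulated libraries, where it is the fifth, and Tigit moves from 9.64 TPM in unstimulated to 185 TPM in IL-33 stimulated ILC2s.

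To ask how activation by IL-33 alters these receptors, IL-33 stimulated and unstimulated ILC2s were compared in edgeR. Of the 9 genes tested, Tigit, Ctla4, Cd274 and Pdcd1 rose, Icosl, Cd200r1, Klrg1 and Icos fell, and Havcr2 did not pass the threshold (adjusted p below 0.05). Over all 15466 genes tested, 16.2% were called higher and 16.1% lower, so calls were common in this comparison. The libraries of the groups did not overlap for all 8 called genes, as for 37.9% of all genes. Without IL-33 stimulated replicate 3 the same 4 genes were called higher and the same 4 lower, when 27.5% of all genes were called higher and 29.7% lower. By library size alone, or on TPM, calls over all genes leaned towards lower values, with 32.8% and 18.1% of the called genes higher instead of 50.2%, while the 8 genes kept their direction.

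The largest difference among the 10 genes was that of Tigit, an inhibitory receptor that competes with CD226. It was at 3.65, 1.72, 2.29 and 3.12 CPM in unstimulated and 71.1, 64.2, 55.4 and 67.8 CPM in IL-33 stimulated libraries. Each stimulated library was far above all unstimulated ones. The log2 fold change was 4.58 (standard error, SE, 0.25, 24-fold), with an adjusted p of 1.56e-05 in edgeR's quasi-likelihood test.

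Ctla4, which takes CD80 and CD86 away from CD28, rose from a level near the limit of detection. Unstimulated libraries had 11, 5, 6 and 5 counts (0.382, 0.143, 0.255 and 0.158 CPM), and IL-33 stimulated libraries 123, 42, 24 and 31 counts (4.04, 1.36, 2.36 and 1.1 CPM). The stimulated libraries were all higher, yet differed from each other by more than those of the other called genes. The log2 fold change was 3.23 (SE 0.55, adjusted p 0.00295 in edgeR), with a 95% interval from 1.96 to 4.49. On log2(TPM + 1), where low genes are compressed, it was 1.34.

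PD-1 and its ligand rose together. Pdcd1 was at 44.1, 37.3, 38.0 and 36.9 CPM in unstimulated and 108, 106, 82.8 and 150 CPM in IL-33 stimulated libraries, a difference of 1.51 on the log2 scale (SE 0.17, adjusted p 0.00041 in edgeR). Cd274, which encodes PD-L1, was at 29.9, 16.5, 20.1 and 25.7 CPM before and 93.7, 84.1, 62.0 and 40.2 CPM after IL-33, a difference of 1.6 on the log2 scale (SE 0.29, adjusted p 0.0041). IL-33 stimulated replicate 4 was the highest library for Pdcd1 and the lowest of its group for Cd274. Pdcd1lg2, the gene of the other PD-1 ligand, also rose, by 1.5 (SE 0.15, adjusted p 0.000248), from 10.9 to 12.7 CPM to 24.9 to 39.9 CPM.

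Among the genes that fell was Icosl, the ligand of ICOS. It was at 35.5, 48.3, 44.4 and 44.4 CPM in unstimulated and 15.9, 13.6, 8.87 and 14.1 CPM in IL-33 stimulated libraries. All stimulated libraries were below all unstimulated ones, and replicate 3 was the lowest. The log2 fold change was -1.71 (SE 0.19, adjusted p 0.000372 in edgeR). Its receptor Icos fell by less, from 959, 874, 868 and 975 CPM to 781, 668, 691 and 722 CPM, a difference of -0.36 on the log2 scale (SE 0.08, adjusted p 0.0104).

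Cd200r1, an inhibitory receptor for CD200, was at 278, 281, 266 and 321 CPM in unstimulated and 114, 104, 80.5 and 114 CPM in IL-33 stimulated libraries, a difference of -1.48 on the log2 scale (SE 0.12, adjusted p 9.63e-05 in edgeR). Cd200, its ligand, moved the opposite way, from 2.17 to 4.25 CPM in unstimulated to 17.3, 17.7, 34.9 and 18.5 CPM in stimulated libraries (log2 fold change 2.72, SE 0.32, adjusted p 0.00049). Receptor and ligand thus changed in opposite directions in these cells, in contrast to PD-1 and its ligands. When IL-33 stimulated replicate 3, which had the most Cd200, was left out, the change of Cd200 was 2.43.

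Klrg1, a lectin-like inhibitory receptor that binds cadherins, was at 207, 174, 184 and 172 CPM in unstimulated and 141, 131, 98.5 and 150 CPM in IL-33 stimulated libraries. Its log2 fold change was -0.5 (SE 0.13, adjusted p 0.0212 in edgeR), and this call was lost when unstimulated replicate 3 or IL-33 stimulated replicate 2 was left out (adjusted p 0.0566 and 0.0584). With no filter on low counts, neither Klrg1 nor Icos passed the threshold (adjusted p 0.0575 and 0.0609). The summed ILC2, T cell, mast cell and basophil, and epithelial and stromal markers were also lower after IL-33, as given above. Icam1 of the ILC2 list and Pecam1 of the epithelial and stromal list were higher, and Il2ra overlapped. These sums are on rescaled TPM, whereas the falls of Icosl, Icos, Klrg1 and Cd200r1 are on TMM-normalised counts. Over all genes tested, the change after IL-33 had a median of -0.25 on log2(TPM + 1), against 0.06 in the TMM fit.

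Havcr2, which encodes TIM-3, was at 18.6, 15.6, 15.6 and 16.0 CPM in unstimulated and 16.9, 16.8, 14.7 and 19.1 CPM in IL-33 stimulated libraries. The groups overlapped, and the difference had a 95% interval from -0.25 to 0.33 on the log2 scale (adjusted p 0.828 in edgeR). Lag3, an inhibitory receptor that binds MHC class II, had 8, 13, 5 and 6 counts in unstimulated and 2, 2, 2 and 6 counts in stimulated libraries and was not tested. It was at or under 3 counts in 3 of the 4 stimulated libraries, so no difference is given at this depth.

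**Figure D2:**
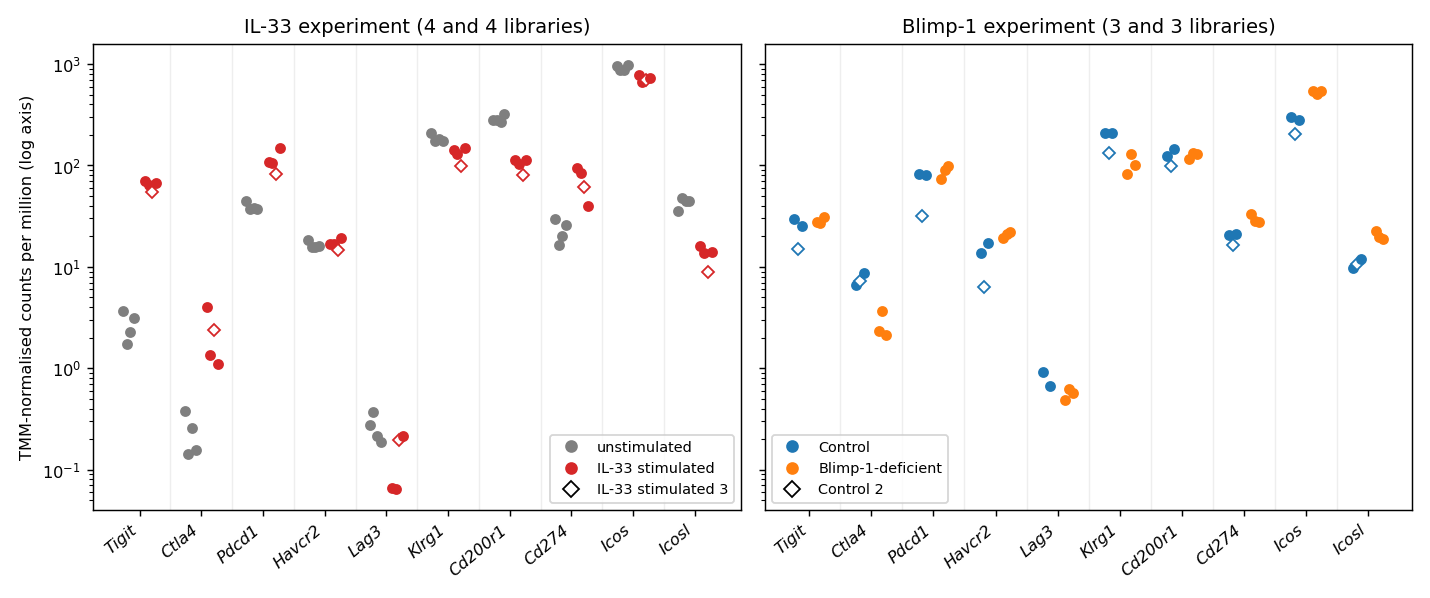
TMM-normalised CPM (log axis) of each gene in each library, unstimulated and IL-33 stimulated on the left and Control and Blimp-1-deficient on the right; open diamonds mark IL-33 stimulated replicate 3 and Control replicate 2, and Lag3 of Control replicate 2, at 0 counts, is not drawn. Tigit is at 1.72 to 3.65 in unstimulated and 55.4 to 71.1 in IL-33 stimulated libraries, and Control replicate 2 is the lowest Control for Tigit, Pdcd1, Havcr2, Klrg1, Cd200r1, Cd274 and Icos.

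The Blimp-1 experiment asked which genes depend on Blimp-1 in activated ILC2s. Prdm1 itself was at 75.2, 92.8 and 74.0 CPM in Control and 14.6, 11.5 and 11.4 CPM in Blimp-1-deficient libraries, so the labels matched the deletion (log2 fold change -2.68, SE 0.15, adjusted p 0.00441 in edgeR over all 6 libraries). Over the 6 libraries, Icosl rose and none of the other 9 genes passed the threshold, when 0.450% of 17335 genes were called higher and 0.306% lower. At an unadjusted p below 0.05 these libraries gave 3 of the 10 genes higher and 2 lower, when 6.17% of all genes were higher and 5.78% lower. DESeq2 called Icos, Icosl, Cd274, Ctla4 and Klrg1 over the same 6 libraries, in the directions given here, when it called 3.22% of all genes higher and 3.19% lower. Without Control replicate 2, Icos, Icosl, Cd274 and Havcr2 rose and Ctla4 and Klrg1 fell, when 8.25% of 17968 genes were called higher and 5.72% lower. For these 6 genes the groups did not overlap in all 6 libraries either, which held for 22.6% of all genes. Tigit, Pdcd1, Cd200r1 and Lag3 did not pass the threshold in either comparison.

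Icosl was at 9.73, 10.7 and 11.9 CPM in Control and 22.5, 19.6 and 18.8 CPM in Blimp-1-deficient libraries. Control replicate 2 lay between the other Controls here. The log2 fold change was 0.91 (SE 0.13, adjusted p 0.0485 in edgeR) over all 6 libraries and 0.92 (SE 0.12, adjusted p 0.00478) without Control replicate 2. Over all 6 libraries the call was near the threshold and was lost when any library other than Control replicate 2 was left out (adjusted p from 0.153 to 0.271). The Icosl window shown above holds the letters GAAAGT, at which no binding was measured here.

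Icos, the receptor for this ligand, had 304, 205 and 278 CPM in Control and 537, 508 and 543 CPM in Blimp-1-deficient libraries. All deficient libraries were above all Controls. This gave a log2 fold change of 0.87 (SE 0.07, adjusted p 0.00141 in edgeR) without Control replicate 2 and 1.01 (SE 0.16, adjusted p 0.0561) with it. Receptor and ligand of the ICOS pair were thus both higher in the absence of Blimp-1 when Control replicate 2 was left out, and both lower after IL-33 in the other experiment, with times and cytokines that differ.

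Ctla4 was at 6.64, 7.31 and 8.61 CPM in Control (551, 30 and 815 counts) and 2.32, 3.68 and 2.11 CPM in Blimp-1-deficient libraries (192, 285 and 204 counts). The deficient libraries were all lower. Its log2 fold change was -1.49 (SE 0.25, 2.81-fold lower, adjusted p 0.0107 in edgeR) without Control replicate 2 and -1.48 (SE 0.27, adjusted p 0.0757) over all 6 libraries. Leaving out Control replicate 3 as well as replicate 2, which leaves a lone Control assumed to vary like the other group, gave an adjusted p of 0.0553.

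Klrg1 was at 210, 132 and 208 CPM in Control and 81.5, 129 and 100 CPM in Blimp-1-deficient libraries. Control replicate 2 and Blimp-1-deficient replicate 2 were close, at 132 and 129 CPM. On the log2 scale the difference was -1.01 (SE 0.16, adjusted p 0.00996 in edgeR) without Control replicate 2 and -0.83 (SE 0.24, adjusted p 0.23) with it. The call was lost when Control replicate 1 was left out beside replicate 2 (-0.99, adjusted p 0.0578). Cdh1, which encodes the KLRG1 ligand E-cadherin, was at 1, 1.46 and 4.31 CPM in Control and 6.81, 2.37 and 3.05 CPM in deficient libraries, which overlapped. The study found KLRG1 protein on lung ILC2s not affected by Blimp-1 loss in mice given intranasal IL-33 and IL-25. That was protein in another model, with deletion by Nmur1-Cre, and was not compared with these transcripts.

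Cd274 was at 20.7, 16.6 and 21.0 CPM in Control and 33.5, 28.6 and 27.7 CPM in Blimp-1-deficient libraries, a difference of 0.53 on the log2 scale (SE 0.1, adjusted p 0.0153 in edgeR) without Control replicate 2 and 0.61 (SE 0.14, adjusted p 0.13) with it. Havcr2 was at 13.8, 6.33 and 17.2 CPM in Control and 19.1, 21.3 and 22.3 CPM in deficient libraries, with 0.44 (SE 0.11, adjusted p 0.0407) and 0.69 (SE 0.31, adjusted p 0.464). Both genes were higher in every deficient library. Neither call held when Control replicate 1 was left out beside replicate 2 (adjusted p 0.0828 for Cd274 and 0.196 for Havcr2). Cd274 also lost its call without Control replicate 3 (0.0606), and Havcr2 without Blimp-1-deficient replicate 2 (0.1) or replicate 3 (0.11).

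Pdcd1 was at 83.1, 31.7 and 80.0 CPM in Control and 73.4, 91.2 and 99.4 CPM in Blimp-1-deficient libraries. Against Controls 1 and 3 the difference was 0.12, with a 95% interval from -0.15 to 0.39 on the log2 scale (adjusted p 0.525 in edgeR), and over all 6 libraries it was 0.41, with an interval from -0.41 to 1.24 (adjusted p 0.716). Tigit, at 29.8, 15.1 and 25.3 CPM in Control and 27.5, 27.2 and 31.0 CPM in deficient libraries, had intervals from -0.16 to 0.29 (adjusted p 0.706) against Controls 1 and 3 and from -0.3 to 0.81 (adjusted p 0.736) over all 6. These libraries overlapped.

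Cd200r1 was at 123, 98.6 and 147 CPM in Control and 115, 132 and 131 CPM in Blimp-1-deficient libraries, with an interval from -0.3 to 0.12 without Control replicate 2 (adjusted p 0.528 in edgeR) and from -0.35 to 0.41 with it (adjusted p 0.977). Lag3 was at 0.929, 0 and 0.676 CPM in Control (77, 0 and 64 counts) and 0.483, 0.619 and 0.569 CPM in deficient libraries (40, 48 and 55 counts). The 0 counts of Control replicate 2 allow up to 0.731 CPM, which lies within the range of the other libraries. Without it the log2 fold change of Lag3 was -0.52, with an interval from -1.16 to 0.13 (adjusted p 0.243), and over all 6 libraries it was -0.2, from -1.79 to 1.39 (adjusted p 0.955). The summed T cell and the mast cell and basophil markers were higher in each deficient library than in each Control. The epithelial and stromal sum was higher and the ILC2 sum lower than in Controls 1 and 3. Not all markers of a list moved this way. In deficient libraries the mast cell and basophil sum was mostly Cd200r3 (9.84 to 13.6 rescaled TPM, against 0.719 to 4.38 in Control). Mcpt8, which reached 4.77 in Control, and Cpa3 overlapped. The T cell sum was mostly Trbc2, Trbc1 and Cd3g, while Trac (3.38 to 9.07 and 6.39 to 15.4) and Cd8a (0.229 to 0.943 and 0.666 to 2.05) reached higher values in Control. Of the ILC2 list, Thy1 (236 to 309 in deficient libraries and 70 to 189 in Control) and Il7r (70 to 87.1 and 15.9 to 53.5) were higher in deficient libraries. So were Rora (103 to 114 and 34.7 to 83.9), Il17rb and Icam1, while Il1rl1 and Il2ra reached higher values in Control. Epcam of the epithelial and stromal list overlapped (11.5 to 13.7 and 3.16 to 14). The part of these markers in the values given here was not tested.

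**Figure D3:**
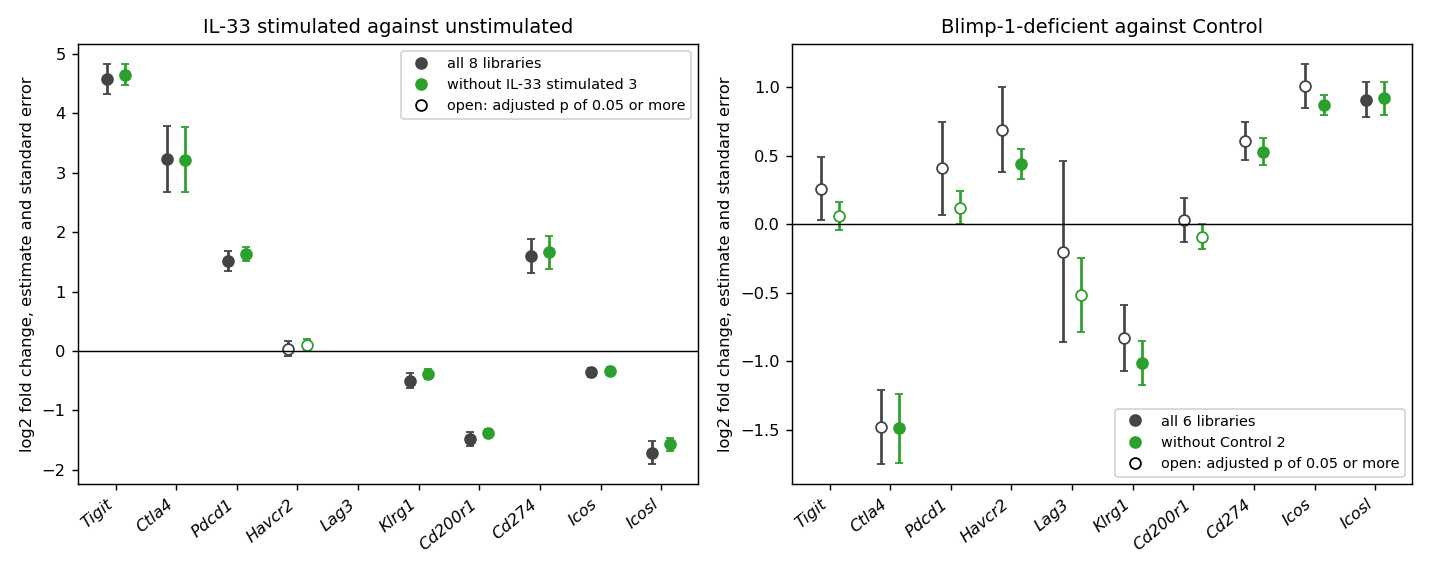
Log2 fold changes with standard errors from edgeR for IL-33 stimulated against unstimulated ILC2s (left) and Blimp-1-deficient against Control ILC2s (right), over all libraries and without the library that stood apart; filled points have an adjusted p below 0.05 and Lag3 was not tested on the left. The 8 called genes on the left are called with and without IL-33 stimulated replicate 3, whereas on the right 1 gene is called over all 6 libraries and 6 without Control replicate 2.

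The other genes of these receptor and ligand systems were examined as a list of 31 partners, 25 of which were tested after IL-33. In that comparison 4 rose and 6 fell, with a median log2 fold change of -0.06 against 0.06 over all genes, where 16.2% were called higher and 16.1% lower. The share of partners that rose was thus close to that over all genes. Cd200, Pdcd1lg2, Btla and Pvr were the 4 that rose. Pvr encodes CD155, the ligand of TIGIT, and rose from 13.3 to 16.3 CPM to 25.2, 26, 17.3 and 26.6 CPM (log2 fold change 0.69, SE 0.16, adjusted p 0.0118 in edgeR). The genes that fell were Nt5e, Cd28, Cd96, Lgals3, Cd48 and Lgals9. Cd28, the activating receptor that competes with CTLA-4, fell by 1.04 (SE 0.31, adjusted p 0.0361), and Cd96, another receptor for CD155, fell by 0.96 (SE 0.19, adjusted p 0.0055). Cd226, the activating counterpart of TIGIT, was at 103, 92.3, 86.1 and 106 CPM before and 116, 117, 95.2 and 116 CPM after IL-33, with overlap and an adjusted p of 0.152. Without IL-33 stimulated replicate 3, Cd226 was called higher too (log2 fold change 0.26, adjusted p 0.011). The inhibitory member of both pairs, Tigit and Ctla4, therefore rose where Cd28 fell and Cd226 either did not pass the threshold or rose by 0.26, depending on that library. The difference between the members of a pair was not tested.

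Lgals9, which encodes the TIM-3 ligand galectin-9, fell by 0.28 (SE 0.09, adjusted p 0.0457 in edgeR). Nt5e, the ectonucleotidase CD73, fell by 1.62 (SE 0.19, adjusted p 0.000521), Lgals3 by 0.81 (adjusted p 0.00164) and Cd48 by 0.69 (adjusted p 0.000788). For the low genes Cd80, Cd86, Ceacam1 and Cdh1, all under 3 CPM in each library, the adjusted p was 0.285 or more. Nectin2, the other ligand of TIGIT, was at 5.99 to 7.61 CPM before and 3.02, 4.28, 7.39 and 3.86 CPM after IL-33 (adjusted p 0.17). Without IL-33 stimulated replicate 3, 26 partners were tested and 6 rose and 10 fell, with Cd80 and Cd226 added to those that rose and Nectin2 among those that fell (log2 fold change -0.86, adjusted p 0.00124), when 27.5% of all genes were called higher and 29.7% lower.

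Of the TNF family costimulators, 10 of 12 were tested after IL-33, and 5 rose and 1 fell (median log2 fold change 1.01 against 0.06 over all genes), when 16.2% of all genes were called higher and 16.1% lower. When IL-33 stimulated replicate 3 was left out, 5 were called higher and 2 lower, against 27.5% and 29.7%. Tnfrsf8 (CD30) rose from 0.716 to 3.58 CPM to 96.3, 93.2, 41.3 and 85.9 CPM (log2 fold change 5.27, SE 0.54, adjusted p 0.000248 in edgeR), and its ligand Tnfsf8 rose by 4.11 (SE 0.26, adjusted p 2.86e-05). Tnfrsf4 (OX40) and Tnfsf4 (OX40 ligand) were also both higher, by 2.96 and 1.91 (adjusted p 0.000917 and 3.06e-05), as was Tnfrsf9 (4-1BB), by 2.58 (adjusted p 0.000359). Cd27, a receptor of naïve lymphocytes, fell by 2.39 (adjusted p 0.000108). Where receptor and ligand of a TNF pair were both called, they moved the same way.

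Among 17 tested genes of the signalling list, 1 rose and 5 fell after IL-33 (median -0.17), against 16.2% and 16.1% of all genes. Leaving out IL-33 stimulated replicate 3 gave 3 higher and 9 lower (median -0.29), against 27.5% and 29.7%. Lck, a kinase of antigen receptor and CD28 signalling that is abundant in T cells, fell by 1.42 (SE 0.14, adjusted p 0.000239 in edgeR), beside the lower T cell markers given above. Pik3cd, the catalytic subunit recruited by ICOS and CD28, fell by 0.99 (adjusted p 0.00245), and Pik3r1, its regulatory subunit, by 0.6 (adjusted p 0.000182). Fyn fell by 0.43 (adjusted p 0.0331), Dok1 fell by 0.6 (adjusted p 0.0447), and Bag6, a protein bound by TIM-3, rose by 0.29 (adjusted p 0.005). Of 16 transcription factors linked to activation and tolerance, 4 rose and 6 fell (median -0.17), and 4 and 7 without that library. Nr4a1 rose by 3.87 (SE 0.2, adjusted p 1.24e-05), Irf4 by 2.42 (adjusted p 0.000401) and Batf by 1.27 (adjusted p 0.000248), all of them factors induced by activation, while Bach2, Nfatc2 and Nfatc1 fell by 1.36, 1.27 and 0.89 (adjusted p 0.000106, 0.000344 and 0.000377).

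In the Blimp-1 experiment over all 6 libraries, none of 26 tested partners, 11 TNF family or 18 signalling genes passed the threshold (edgeR). Of 17 transcription factors, Prdm1 and Eomes fell. Over all genes, 0.450% were called higher and 0.306% lower, so few calls would be found in any list of this size. At an unadjusted p below 0.05, 10 partners were higher and 0 lower, and 4 TNF family genes higher and 1 lower. Of the signalling genes 3 were higher and 1 lower, and of the transcription factors 4 and 4, against 6.17% and 5.78% of all genes. DESeq2 called 18 genes of these 4 lists, and 3.22% of all genes higher and 3.19% lower. Without Control replicate 2, 11 of 27 partners rose and none fell (median log2 fold change 0.51 against 0.01 over all genes), when 8.25% of all genes were called higher and 5.72% lower. At an unadjusted p below 0.05, 14 partners were higher and 2 lower, against 16.7% and 14.5% of all genes. The TNF family gave 7 higher and 1 lower, the signalling list 3 and 4, and the transcription factors 5 and 5. Cd28 was at 6.99, 7.06 and 6.83 CPM in Control and 21, 17.1 and 12.2 CPM in Blimp-1-deficient libraries (log2 fold change 1.29, SE 0.22, adjusted p 0.0114 in edgeR without Control replicate 2). Cd226 was at 43, 20.2 and 36.7 CPM in Control and 74.9, 79 and 75.3 CPM in deficient libraries (0.95, SE 0.08, adjusted p 0.00146). These activating receptors were higher in the deficient libraries, where Ctla4 was lower and Tigit overlapped. Over all 6 libraries the adjusted p was 0.0605 for Cd28 and 0.117 for Cd226.

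Also without Control replicate 2, Cd96 rose by 0.95 (adjusted p 0.00713 in edgeR), Cd200 by 1.08 (adjusted p 0.00214), Nt5e by 0.8 (adjusted p 0.0102) and Pdpn by 0.92 (adjusted p 0.0113). The ligands of CTLA-4 and CD28 were called higher too: Cd80 was at 4.71, 7.55 and 3.11 CPM in Control and 7.96, 6.93 and 5.95 CPM in deficient libraries (log2 fold change 0.84, adjusted p 0.0448), and Cd86 at 0.47, 0 and 0.475 CPM and 1.4, 2.37 and 1.62 CPM (1.93, adjusted p 0.00796). Control replicate 2 was within the deficient range for Cd80. Pvr and Nectin2 had log2 fold changes of 0.29 and 0.6 (adjusted p 0.0486 and 0.0347), whereas Pdcd1lg2, Lgals9 and Ceacam1 had 0.53, 0.08 and 0.74 (adjusted p 0.0731, 0.509 and 0.14).

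In the same fit, 3 of 11 TNF family genes rose and 1 fell, when 8.25% of all genes were called higher and 5.72% lower. Tnfsf8, the CD30 ligand, was at 73.4, 23.1 and 45.5 CPM in Control and 291, 222 and 298 CPM in deficient libraries (log2 fold change 2.19, SE 0.23, adjusted p 0.00232 in edgeR), while its receptor Tnfrsf8 fell from 405, 419 and 380 CPM to 201, 249 and 156 CPM (-0.95, SE 0.17, adjusted p 0.014). This pair, which rose together after IL-33, thus moved apart here. Tnfsf4 rose by 1.28 and Cd40 by 0.79 (adjusted p 0.0411 and 0.0449). Of the 18 signalling genes, against the same shares of all genes, Csk, Itch and Ptpn6 rose by 0.62, 0.37 and 0.44 (adjusted p 0.00167, 0.00674 and 0.00856), and Rasa1 and Dok2 fell by 0.41 and 0.38 (adjusted p 0.00552 and 0.0252). Csk and Ptpn6 (SHP-1) are known to dampen receptor signalling.

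Beside Prdm1, the transcription factors that fell without Control replicate 2 were Eomes (log2 fold change -2.67, adjusted p 0.00327 in edgeR), Ikzf2 (-0.46, adjusted p 0.00688), Nfatc2 (-0.29, adjusted p 0.0338) and Id2. Eomes was low, at 2.25, 2.19 and 2.39 CPM in Control and 0.52, 0.31 and 0.259 CPM in deficient libraries. It is itself an NK cell marker, and Gzma, another of that list, was at 3.65 to 9.02 rescaled TPM in Control and 0.103 to 2.36 in deficient libraries. Ncr1 of the same list lay the other way, at 0 to 0.541 in Control and 0.642 to 5.86 in deficient libraries, and the sums of the list overlapped. Tcf7, the factor TCF-1 of early and memory lymphocytes, rose by 1.88 (adjusted p 0.0148), from 4.29, 6.58 and 2.01 CPM to 13.8, 11.9 and 8.69 CPM, and Nr4a1 rose by 0.72 (adjusted p 0.027).

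**Figure D4:**
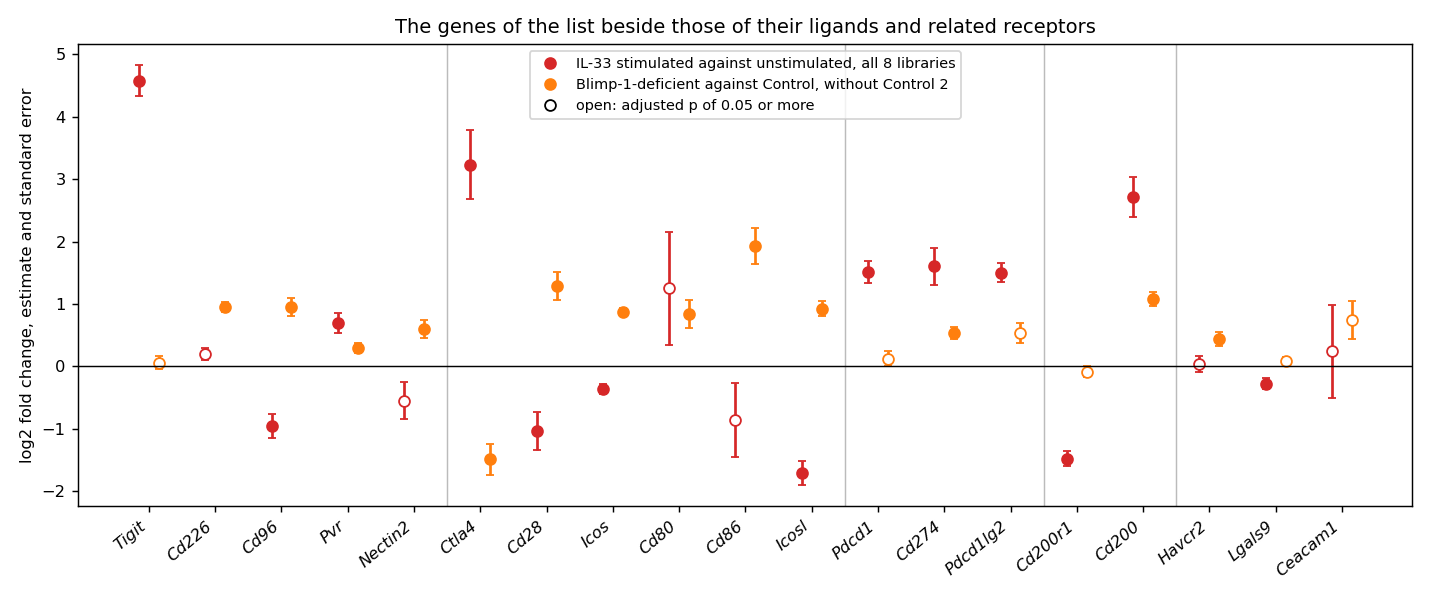
Log2 fold changes with standard errors for the receptors and ligands of the list beside their partner genes, grouped by the TIGIT, CTLA-4 and ICOS, PD-1, CD200 and TIM-3 systems, after IL-33 over all 8 libraries and in Blimp-1 deficiency without Control replicate 2; filled points have an adjusted p below 0.05. Tigit and Ctla4 lie above 3 after IL-33, and Cd28, Cd226, Cd96, Icos and Icosl lie between 0.87 and 1.29 in Blimp-1 deficiency.

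Likeness of pattern was described by Pearson's r of log2(CPM + 1) over the 8 libraries of the IL-33 experiment, among 10810 genes with a mean of at least 5 CPM. As these libraries form a pair of groups, any gene that IL-33 moved in step reaches a high r. The genes most like Tigit were Got1 and Crem (r = 0.999 each) and Satb1 (0.998), those most like Pdcd1 were Chst11, Idi1 and Copz1 (0.997 each), and AW112010 (0.986) was most like Cd274. Icosl was most like Plec, Faah and Tnk2 (0.998 each), Klrg1 like S100a13 (0.997), Cd200r1 like Fam102b, Mns1 and Pitpnc1 (0.999 each), and Icos like Ikzf3 (0.974). Havcr2, which did not separate the groups, was most like Atp5j (0.974).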

How the data were processed

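The members and the gene lists were chosen with earlier results of these data known. The authors aligned reads of 14 SMART-seq v4 libraries to GRCm38 with HISAT2, as their methods state (the submitters' processing notes list Bowtie2, Subread and DESeq2, with mm10), and deposited raw counts per gene, made with Subread, and TPM, separately for each experiment. TPM of every library sum to 1000000. Each library was used as 1 sample, whether of 1 mouse or of pooled animals, on which the sources differ.

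Each count table was fitted on its own with edgeR 4.0.16 in R 4.3.3 (TMM, filterByExpr, quasi-likelihood test, group only), two-sided, with Benjamini-Hochberg adjustment over all genes tested and a threshold of 0.05. Standard errors are the log2 fold change over the root of F, and intervals are 95%. CPM are TMM-normalised counts per 1000000 without a prior. TPM were used for levels, and also rescaled without genes that held at least 1% of a library and over 10 times their highest share elsewhere.

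Beside the 10 members, the genes named are up to 6 per list and comparison with the smallest adjusted p below 0.05 and at least 1 CPM, the direct ligands and receptors of the members, the 3 or fewer genes most alike, and Btla and Id2, which complete a count of calls. The list of 31 partners was matched for 30. The method was tested on simulated data. Alternatives were DESeq2 1.42.0, RLE size factors, library size alone, no filter, a mean count of at least 50, a block for the replicate number, each library left out in turn, and limma 3.58.1 on log2(TPM + 1) and log2(TPM + 0.1) for genes averaging 1 TPM or more. Those run without Control replicate 2 were added after seeing the data. Figures were drawn with Python 3.11.15 and matplotlib 3.10.9.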

Additional observations from a re-analysis of the deposited data

Results flagged for a closer look

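Among the 46 groups of 4 libraries of the IL-33 experiment that were examined, 6 held a library far from the other 3 by Dixon's test at the 95% level, which chance gives in about 1 of 20 groups. Pdcd1 was at 44.13 CPM in unstimulated replicate 1, against 36.87 to 38.03 in the others, and Havcr2 at 18.58 CPM in the same library, against 15.55 to 16.01. The other 4 were in IL-33 stimulated replicate 3, which had fewer counts than any other of its experiment. Cd80 was at 0.0 CPM there, against 2.721 to 2.957 in the other stimulated libraries, and 3 counts in that library amount to 0.296 CPM. Cd226 was at 95.15 CPM, against 115.7 to 117.4, and Pvr at 17.34 CPM, against 25.17 to 26.58. Cd200 was at 34.87 CPM, above the 17.28 to 18.55 CPM of the others. Groups of 3 libraries were not examined in this way.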

How the results depend on the processing

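After IL-33, the 8 called genes kept their direction under the alternatives that tested them, and the number called was 6 with no filter, 7 with a mean count of at least 50, which left Ctla4 untested, and 7 to 8 with a library left out. Calls over all genes were 3672 to 8994 with a library left out, the highest without IL-33 stimulated replicate 3. In the Blimp-1 comparison over all 6 libraries, 1 member, 2 genes of the other lists and 131 of all genes were called, but this depended on the processing. DESeq2 called 5, 18 and 1106 of them, a mean count of at least 50 called 2, 7 and 256, library size alone called 0 members and 1 list gene, and no filter called 0 members. On log2(TPM + 1) and log2(TPM + 0.1), 0 members, 0 list genes and 2 and 1 of all genes were called. With a library left out the counts were 0 to 6, 0 to 27 and 0 to 2510, the highest without Control replicate 2. The cause was not tested. Icosl lost its call in 10 of 14 alternatives. On TPM the median of all genes moved to 1.28 and 1.69, and with library size alone to 0.45, and on TPM Klrg1 took the opposite sign under both pseudocounts (0.92 and 0.96) and Ctla4 on log2(TPM + 0.1) alone (0.17). Without Control replicate 2, 6 members were called under the 7 other settings run, and 3 to 6 with a further library left out, the lowest without Control replicate 1. List genes called were 27, 40 with no filter and 17 to 22 with a library left out, and all genes called were 2510, 3855 with no filter, 1651 on log2(TPM + 1), 1674 on log2(TPM + 0.1) and 952 to 1730 with a library left out.

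The replicate numbers were not shown to pair the samples, as the series' design assigns the groups to separate mice and the correlations of their deviations were -0.113 to 0.313 and -0.155 to 0.137. With the replicate block, 8 members, 26 list genes and 3700 of all genes were called after IL-33, and 0 members, 0 list genes and 0 of all genes in the Blimp-1 comparison (Icosl adjusted p 0.224, 1380 genes at an unadjusted p below 0.05). Depth limits Lag3 and Ctla4, and all values of Control replicate 2.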
